A study of Homo sapiens with 6 samples.

Results

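The wells described here held siRNA against 10 genes whose products act on transcription by RNA polymerase II: the cyclin-dependent kinases CDK7, CDK8, CDK9, CDK11A, CDK11B, CDK12, CDK13 and CDK19, and TAF1 and TAF1L. They were found by locus ID among the 939 library wells of a kinome siRNA screen, and all 10 were measured, with 1 well each, out of 926 genes in all. The file lists some under older names, CDC2L2 for CDK11A, CDC2L1 for CDK11B, CRK7 for CDK12, CDC2L5 for CDK13 and CDK11 for CDK19. The CDC2L2 well carries a locus ID, 985, that is not in the RefSeq gene table, and it was taken as CDK11A through its transcript. The rule used no measured value, but the genes, lists and tests were chosen with earlier results of these data known.

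The screen was done in SUM149PT, an established cell line from inflammatory breast cancer of the triple-negative type, and asked which knockdowns would complement the effect of eicosapentaenoic acid (EPA), an omega-3 fatty acid. All samples were reverse-transfected with 45 nM siRNA on 750 cells per well and kept for 48 hours. There were 3 untreated samples and 3 given EPA at 50 µM for another 72 hours, and they are called untreated replicates 1 to 3 and EPA replicates 4 to 6 after the columns of the deposited table. Living cells reduce the resazurin dye to a fluorescent product, so a low signal stands for fewer or less active cells, which cannot be told apart. Separate cultures are not stated, and each p-value therefore reflects the spread among 6 readings that may be technical repeats. Each gene rests on 1 well per sample in 1 cell line, and the loss of each target's RNA or protein was not analysed here.

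RNA polymerase II starts at promoters with the help of general factors, among them TFIID, of which TAF1 is the largest subunit, and TFIIH, which carries CDK7. The kinases then phosphorylate the tail of the polymerase and its partners: CDK7 at initiation, CDK9 (in P-TEFb) at release from the pause near the promoter, and CDK12 and CDK13 during elongation. CDK8 and CDK19 are alternative kinases of the Mediator complex, and the nearly identical CDK11A and CDK11B act in RNA processing and mitosis. Cells depend on several of these kinases for short-lived transcripts, and inhibitors of CDK7, CDK9 and CDK12 have been studied in breast cancer.

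The range of the assay sets what can be read. OTP3, the negative control siRNA, read 49202 ± 1292 in the untreated samples and 24974 ± 2908 in the EPA-treated ones (SD, 3 samples per group). EPA thus left 50.8% ± 3.50 (SE), and the median library well kept 59.0% ± 3.94. Blank wells read 3738 and 3888. EPA removed less signal near the plate edge: in plate 1, OTP3 wells and cells alone kept 70.2% ± 7.15 in row 2 but 36.05% ± 4.40 in row 9, 39.9% ± 5.97 in row 11 and 46.75% ± 5.58 in row 13, and in row 1 of plate 3 they kept 84.8% ± 5.56. CDK12 lay in that row 2, CDK11B in row 9 (column 24, at the edge), CDK11A, CDK13 and CDK19 in row 11, and CDK7, CDK8 and CDK9 in row 13. TAF1 and TAF1L lay in row 1 of plate 3. The control values of row 2 rest on only 2 wells, and those of the other rows named on 3 wells each. These control wells lay in other columns than the library wells.

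**Figure D1:**
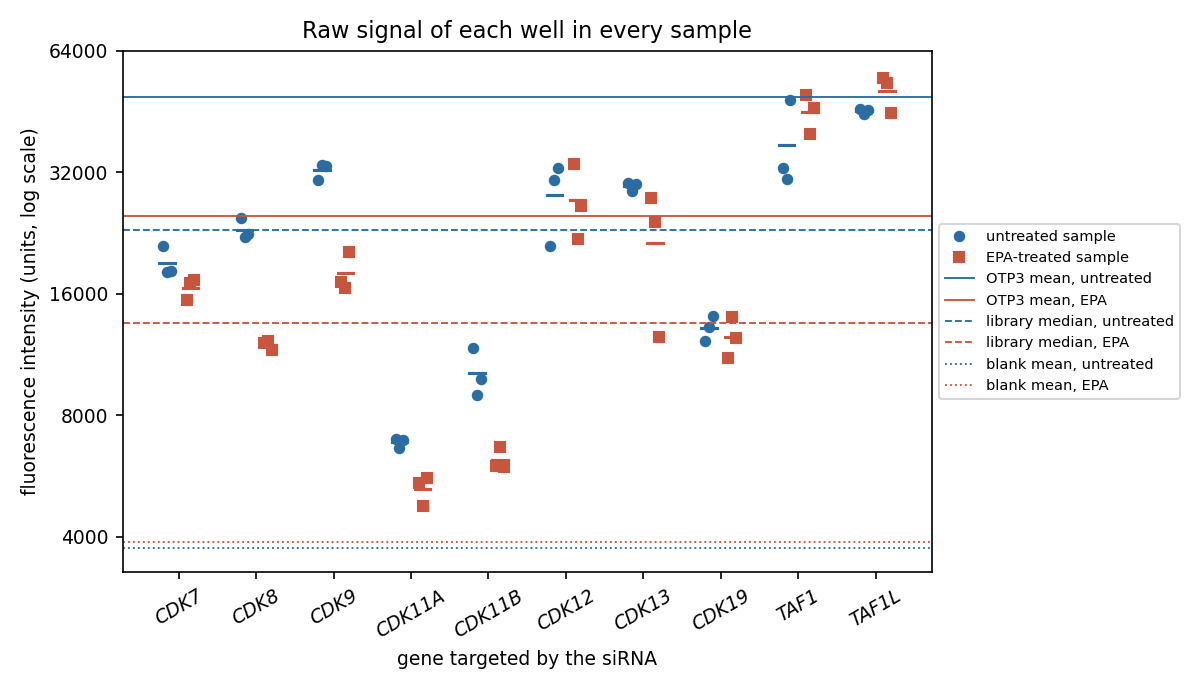
Raw fluorescence (log scale) of the 10 siRNA wells in each of 3 untreated (circles) and 3 EPA-treated samples (squares), with bars at the group means and lines at the means of OTP3 and blank wells and the library median. CDK11A is the lowest in both groups, at 6847 and 5257 on average, and TAF1L the highest, at 45407 and 50947.

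Signals were expressed as log2 ratios to the library median of the same plate and sample, and limma was fitted to all 939 library wells. A call is an adjusted p (Benjamini-Hochberg) under 0.05. Without EPA, 4 of the 10 siRNAs were lower than the library median (CDK7, CDK11A, CDK11B and CDK19) and 3 were higher (CDK9, TAF1 and TAF1L), where 35.6% and 33.9% of all library wells were. With EPA, 3 were lower (CDK8, CDK11A and CDK11B) and 4 higher (CDK12, CDK13, TAF1 and TAF1L), beside 37% and 36.4% of the library. These shares are near the background. The values were also corrected for plate position by median polish, which takes out row and column medians. After it, 5 were lower and 1 higher without EPA (27.8% and 26% of the library), and 3 lower and 5 higher with EPA (30.1% and 30.4%). The library median is itself a knockdown level, so the reference matters, as the next settings show.

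The reference and the scaling moved these counts, mostly together with those of the library. Against OTP3, 9 of the 10 siRNAs were lower and 0 higher untreated (limma, 0 higher also at an unadjusted p under 0.05; 92.4% and 0.852% of library wells), and with EPA 6 were lower and 2, TAF1 and TAF1L, higher (73.2% and 11.2%). Against OTP3 wells and cells alone of the same row, all 10 were lower untreated (94.9% lower and 0.213% higher in the library), and with EPA 7 were lower and 0 higher (limma, 0 higher also at an unadjusted p under 0.05; 71.2% and 6.07%). Blank subtraction gave 4 lower and 3 higher untreated (32.9% and 31.2%) and 3 lower and 4 higher with EPA (37.2% and 36.8%). Blank subtraction with median polish gave 4 lower and 1 higher untreated (22.9% and 22%) and 3 lower and 5 higher with EPA (30.9% and 29.4%). Quantile normalization gave 4 and 3 untreated (37.5% and 36.7%) and 3 and 4 with EPA (36.2% and 35%). A fit without the trend and robust options gave 4 and 3 (36.1% and 34%), and 3 and 4 (37.3% and 36.6%). A low-signal filter, which removed CDK11A and CDK11B, gave 2 and 3 (29.6% and 37%), and 1 and 4 (31% and 39.8%).

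**Figure D2:**
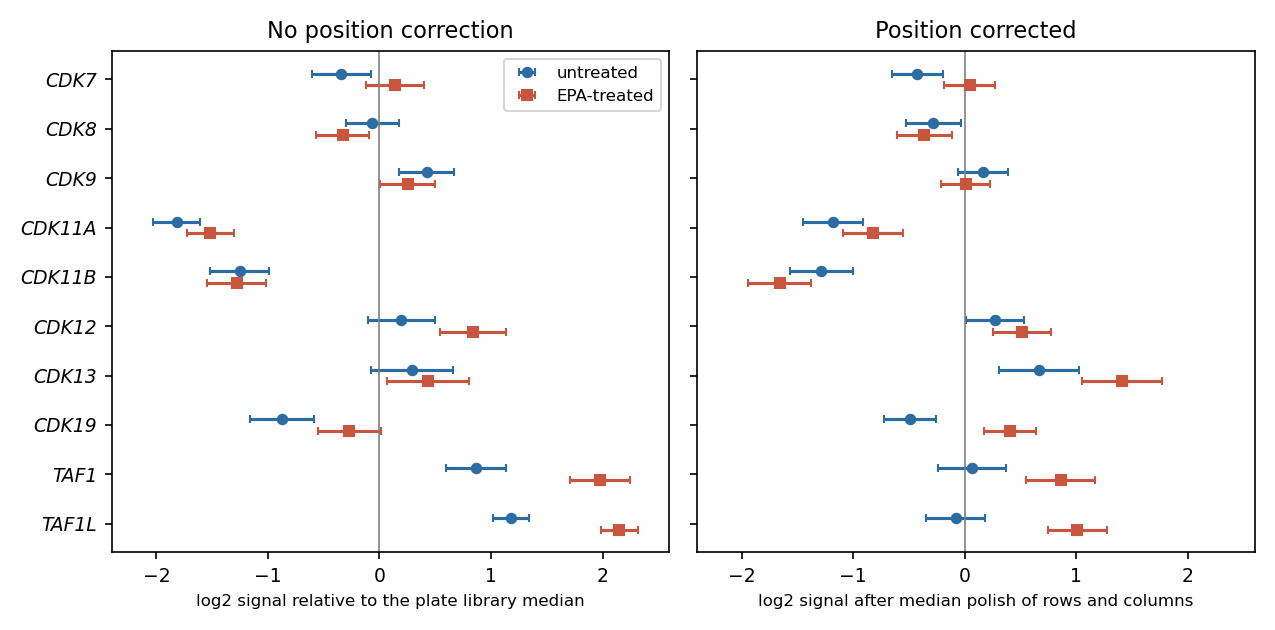
Signal of each siRNA on a log2 scale, relative to the plate's library median (left) and after median polish of plate rows and columns (right), with 95% confidence intervals from limma (n = 3 samples per group). CDK11A and CDK11B stand below 0 in both groups and both panels, and TAF1 and TAF1L stand near 0 without EPA only after median polish, at 0.07 and -0.08.

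Among the initiation factors, CDK7 siRNA gave 20963, 18088 and 18159 units in untreated replicates 1 to 3 and 15436, 16962 and 17261 in EPA replicates 4 to 6. The groups did not overlap, every EPA-treated reading being the lower, as for 61.7% of library wells. The loss was small, 86.8% ± 5.23 (SE) of the signal being left where controls in its row kept 46.75%. The 19 other library wells of row 13 kept a median of 61.3%, from 19.4% to 96.2%, and CDK7 was the 4th from the top. CDK7 was thus 38.5% ± 4.35 of OTP3 without EPA and 62.7% ± 12.6 with it (SD, n = 3; two-sided exact permutation p = 0.1, and no smaller value is possible for 3 samples a group). On the log2 scale it was -0.34 from the library median without EPA (SE 0.118, limma adjusted p = 0.0249) and 0.14 with it (adjusted p = 0.301). The difference, EPA-treated minus untreated, was 0.48 (95% interval 0.11 to 0.85, adjusted p = 0.0395) and 0.47 after median polish (adjusted p = 0.0287). The call was lost without untreated replicate 2 or 3 or EPA replicate 5 or 6, at 0.44, 0.45, 0.43 and 0.41, and without the same samples after median polish. The call of CDK7 as lower without EPA was also lost without untreated replicate 2 or 3, at -0.30 and -0.31 (limma adjusted p = 0.116 and 0.104). Those values moved little from -0.34, and the fits had fewer samples.

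TAF1, the scaffold subunit of TFIID, read 32842, 30855 and 48360 untreated and 49658, 39851 and 46224 with EPA. TAF1L, the product of a retroposed copy of TAF1, read 45910, 44641 and 45671 untreated and 54863, 53179 and 44800 with EPA. These raw values overlapped between the groups, with 1 TAF1 reading and 2 TAF1L readings with EPA above every untreated one of the same gene. TAF1 had 1 high untreated sample, replicate 3. On average 121% ± 19.5 (SE) of the TAF1 signal and 112% ± 6.92 of the TAF1L signal was left. Relative to the library median TAF1 stood at 0.87 without EPA and 1.98 with it, and TAF1L at 1.18 and 2.15, the 4th and 2nd highest of the 939 wells with EPA. The differences were 1.11 (95% interval 0.73 to 1.49, limma adjusted p = 0.00123) and 0.97 (0.74 to 1.20, adjusted p = 0.00023).

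Row 1, where both wells lay, changed the level of these values, while the differences stayed above 0. Without EPA neither stood apart from its row and column, at 0.07 for TAF1 and -0.08 for TAF1L after median polish (limma adjusted p = 0.729 and 0.603). With EPA they stood at 0.86 and 1.01, so the differences after median polish were 0.80 (adjusted p = 0.00812) and 1.09 (adjusted p = 0.000329). Of OTP3 and cells alone in the same row, TAF1 had 63.3% ± 14.6 untreated and 91.3% ± 12.2 with EPA, and TAF1L 77.3% ± 1.54 and 102.3% ± 4.01 (SD, n = 3; exact permutation p = 0.2 and 0.1). Against these row-matched controls the differences were smaller, 0.54 (adjusted p = 0.0275) and 0.40 (adjusted p = 0.0186). The median difference of the library was 0.50 on that scale, so on it neither stood far from other siRNAs.

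The wells around them differed widely. TRIM27, whose well lay between those of TAF1 and TAF1L, kept 110% of its signal and RET, on the other side of TAF1, 118%, while GRK1, next to TAF1L, kept 27.7%. Over the row, TAF1 kept the largest share of 20 library wells and TAF1L the third largest, and the other 19 wells beside TAF1 ran from 27.7% to 118% with a median of 90.7%. The part that position has in the values of TAF1 and TAF1L beyond these corrections was not tested. Both differences passed in all 6 fits that left out 1 sample, with and without median polish. With blank subtraction and median polish together TAF1 stood at 0.81 and no longer passed (limma adjusted p = 0.0646), and TAF1L, at 1.10, did.

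**Figure D3:**
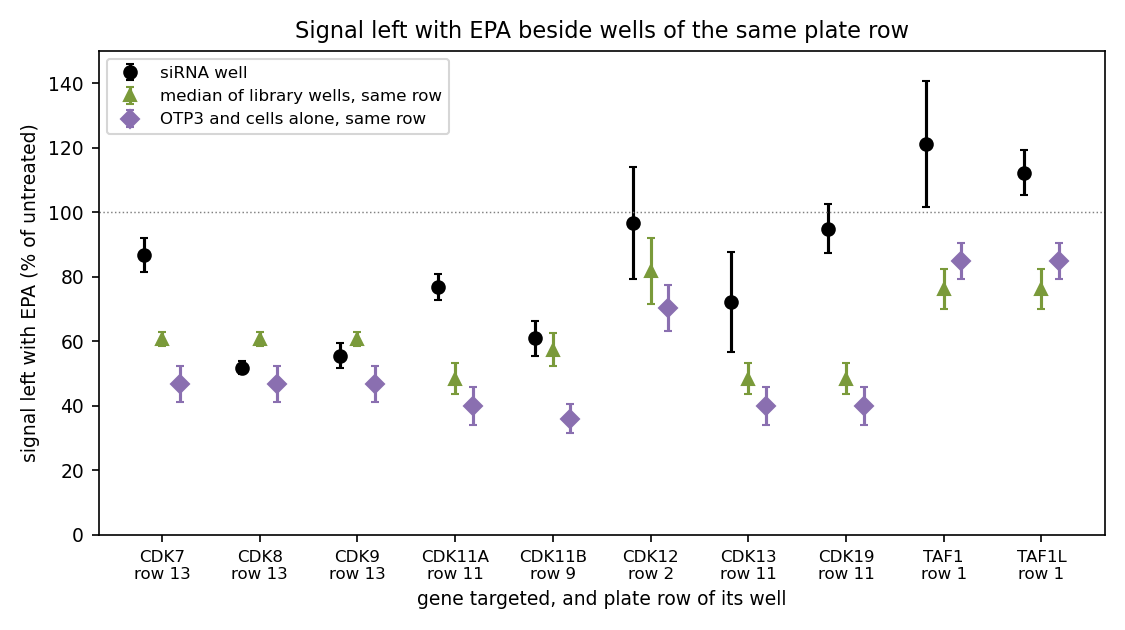
Share of the raw signal left with EPA (percent of untreated) for each siRNA well (circles), the median of the library wells in its plate row (triangles) and OTP3 and cells alone in that row (diamonds), with SE from 3 samples per group. TAF1 and TAF1L lie above 100%. CDK7, CDK11A, CDK11B, CDK12, CDK13 and CDK19 lie above the controls of their rows, CDK12 and CDK13 with wide SEs, and CDK8 and CDK9 lie near them. The library medians of these plate 1 rows also lie above the controls, at 81.8% (row 2), 57.4% (row 9), 48.4% (row 11) and 60.7% (row 13). No blank was subtracted, and the CDK11A and CDK11B readings with EPA are close to the blank level.

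CDK9, the kinase of P-TEFb, read 30599, 33269 and 33205 untreated and 17071, 16564 and 20299 with EPA. The groups did not overlap, every EPA-treated reading being the lower, as for 61.7% of library wells, and 55.6% ± 3.92 (SE) was left, beside 50.8% for OTP3. The 19 other library wells of row 13 kept a median of 71.2%, and CDK9 was the 14th from the top. It was 65.1% ± 2.03 of OTP3 untreated and 67.7% ± 12.1 with EPA (exact permutation p = 0.8). CDK9 was higher than the library median without EPA, at 0.42 (limma adjusted p = 0.00613), but not after median polish, at 0.16 (adjusted p = 0.209). The difference was -0.17 (95% interval -0.52 to 0.18, adjusted p = 0.401), so a further loss with EPA of up to 0.52 log2 units is inside the interval. With EPA it stood at 0.25 (adjusted p = 0.0588), and at 0.37 without EPA replicate 4, which passed (adjusted p = 0.0169). The difference passed in 0 of the 10 settings run with limma, at adjusted p-values from 0.145 to 0.844.

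CDK12, an elongation kinase needed for long genes and DNA repair genes, read 21020, 30668 and 32806 untreated and 33541, 21835 and 26338 with EPA. The groups overlapped, and 96.7% ± 17.4 (SE) of the signal was left where controls in row 2 kept 70.2%. The 19 other library wells of that row kept a median of 86.7%, from 57.5% to 104.5%, and CDK12 was the 6th from the top. CDK12 was at 0.20 without EPA (limma adjusted p = 0.208) and at 0.84 with it (adjusted p = 0.000232), a difference of 0.64 (95% interval 0.22 to 1.06, adjusted p = 0.0203). That call was lost after median polish, at 0.24 (adjusted p = 0.30), and without untreated replicate 1 or EPA replicate 4 or 6, at 0.44, 0.55 and 0.61.

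CDK13, the close relative of CDK12, read 30120, 28802 and 29878 untreated and 27672, 24043 and 12487 with EPA. With EPA, CDK13 stood at 0.43 (limma adjusted p = 0.0358), a call lost without untreated replicate 1 or EPA replicate 4 or 5, at 0.43, 0.28 and 0.27. EPA replicate 6 was far below the other samples of its group, and the mean left, 72.3% ± 15.5 (SE), rests on that sample. The difference was 0.14 with it (95% interval -0.38 to 0.66, limma adjusted p = 0.649) and 0.45 without it (adjusted p = 0.0324). After median polish CDK13 was at 0.66 untreated (adjusted p = 0.00366) and 1.41 with EPA (adjusted p = 5.13e-06), the 11th highest of the library. The difference there was 0.74 (adjusted p = 0.0272), a call lost without untreated replicate 1 or 3 or EPA replicate 4 or 5, at 0.67, 0.81, 0.51 and 0.68.

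Of the Mediator kinases, CDK8 read 24603, 22083 and 22534 untreated and 12053, 12226 and 11595 with EPA. CDK19 read 12240, 13234 and 14062 untreated and 11072, 14016 and 12433 with EPA. CDK8 was higher than CDK19 in every untreated sample and fell to its level with EPA, while the CDK19 readings overlapped between the groups. Of the CDK8 signal 51.8% ± 1.92 (SE) was left, as for OTP3. The 19 other library wells of row 13 kept a median of 71.2%, and CDK8 was the 16th from the top. Of the CDK19 signal 94.9% ± 7.49 was left, where controls in row 11 kept 39.9%. CDK19 was the 2nd from the top of its row, whose 19 other library wells kept a median of 63.6%, from 21.4% to 102.8%. CDK19 went from 26.5% ± 1.03 of OTP3 to 47.7% ± 12.9 and CDK8 from 46.5% ± 3.89 to 45.1% ± 7.48 (SD, n = 3; exact permutation p = 0.1 and 0.9).

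CDK19 was lower than the library median without EPA, at -0.87 (SE 0.128, limma adjusted p = 0.000161), and at -0.27 with it (adjusted p = 0.08). The difference was 0.60 (95% interval 0.20 to 1.01, adjusted p = 0.0215), and 0.89 after median polish (adjusted p = 0.000554). After median polish the value with EPA turned to 0.40 and passed (adjusted p = 0.00509). The call on the difference was lost without untreated replicate 1 or 2 or EPA replicate 5 or 6 (0.55, 0.60, 0.48 and 0.57) and in none of these fits after median polish. CDK8 differed by -0.26 (95% interval -0.60 to 0.07, adjusted p = 0.179), and by -0.08 after median polish (adjusted p = 0.74). With EPA, CDK8 was lower than the library median at -0.33 (adjusted p = 0.0175), a call lost without EPA replicate 4 (-0.26, adjusted p = 0.0753).

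CDK11A and CDK11B gave the lowest signals of the 10 genes. CDK11A read 6970, 6620 and 6951 untreated and 5418, 4755 and 5598 with EPA, and CDK11B read 11707, 8984 and 9821 untreated and 5981, 6677 and 5934 with EPA. For both genes all untreated samples were above all EPA-treated ones, as for 61.7% of library wells. With EPA the readings came close to the blank level of 3888. After blank subtraction CDK11A was at 6.64% ± 0.355 of OTP3 untreated and 5.87% ± 1.38 with EPA, and CDK11B at 13.9% ± 3.27 and 10.4% ± 3.70 (SD, n = 3; exact permutation p = 0.5 and 0.3). The 2 genes are near-identical copies, and whether either reagent also targets the other gene was not tested.

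On the log2 scale CDK11A was at -1.82 untreated (SE 0.0940, limma adjusted p = 2.03e-07), the 19th lowest of 939 wells, and at -1.52 with EPA (adjusted p = 2.74e-07). CDK11B was at -1.25 (SE 0.118, adjusted p = 7.79e-06) and -1.28 (adjusted p = 4.55e-06). Both were lower in both groups in all 8 settings that kept them, and the low-signal filter removed both. After median polish CDK11A was at -1.18 and -0.82 and CDK11B at -1.28 and -1.66, so CDK11B was then the lower of the pair; column 24, which holds CDK11B, had a library median of 35645 untreated. The difference between EPA-treated and untreated was 0.30 for CDK11A (95% interval 0.00 to 0.60, adjusted p = 0.091) and -0.02 for CDK11B (-0.40 to 0.35, adjusted p = 0.92). Against row-matched controls both were higher with EPA, at 0.97 and 0.78 (adjusted p = 0.00123 and 0.0106), but after blank subtraction they stood at -0.34 and -0.59 and did not pass (adjusted p = 0.483 and 0.178).

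The comparison the screen was built for was EPA-treated minus untreated, taken here relative to the library median. By limma, 5 of the 10 siRNAs were higher with EPA on that scale (CDK7, CDK12, CDK19, TAF1 and TAF1L) and 0 lower, where 29% and 15.2% of library wells were. For CDK7, CDK12 and CDK19 higher means a smaller mean loss. They kept 86.8%, 96.7% and 94.9% of the raw signal, beside 59.0% for the median library well. The other library wells of their rows kept medians of 61.3%, 86.7% and 63.6%, so CDK12 lay closest to its row. At an unadjusted p under 0.05 there were 6 higher, CDK11A added, and 0 lower. Their median was 0.39, beside 0.20 for all library wells. After median polish 5 were higher, with CDK13 in place of CDK12, and 0 lower (16.3% and 14.1% of the library). Over the 10 settings run on all samples (the first fit and 9 alternatives), TAF1L passed in 10, TAF1 and CDK19 in 9, CDK7 in 8, CDK12 in 6 and CDK13 in 3. With the median siRNA difference of each plate set to 0, TAF1 (0.85) and TAF1L (0.71) were the 2 still higher, beside 14% of the library (20.7% lower). Higher by limma were 6 with OTP3 centring, where CDK11A joined (46.5% of library wells higher, 9.69% lower), and 8 with row-matched controls (50.6% and 7.35%). There were 5 with blank subtraction (25.8% and 16.5%), 3 with blank subtraction and median polish (13.3% and 14.4%), 4 with quantile normalization (18.3% and 17.4%), 5 with the low-signal filter (28.6% and 16.9%) and 5 without the trend and robust options (28.6% and 15%). None of the 10 siRNAs was lower in any of these 10 settings at an adjusted p under 0.05, and at an unadjusted p under 0.05 CDK11B was with blank subtraction and median polish (-0.88) and 1 siRNA, CDK8, with the median difference set to 0 (-0.41).

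**Figure D4:**
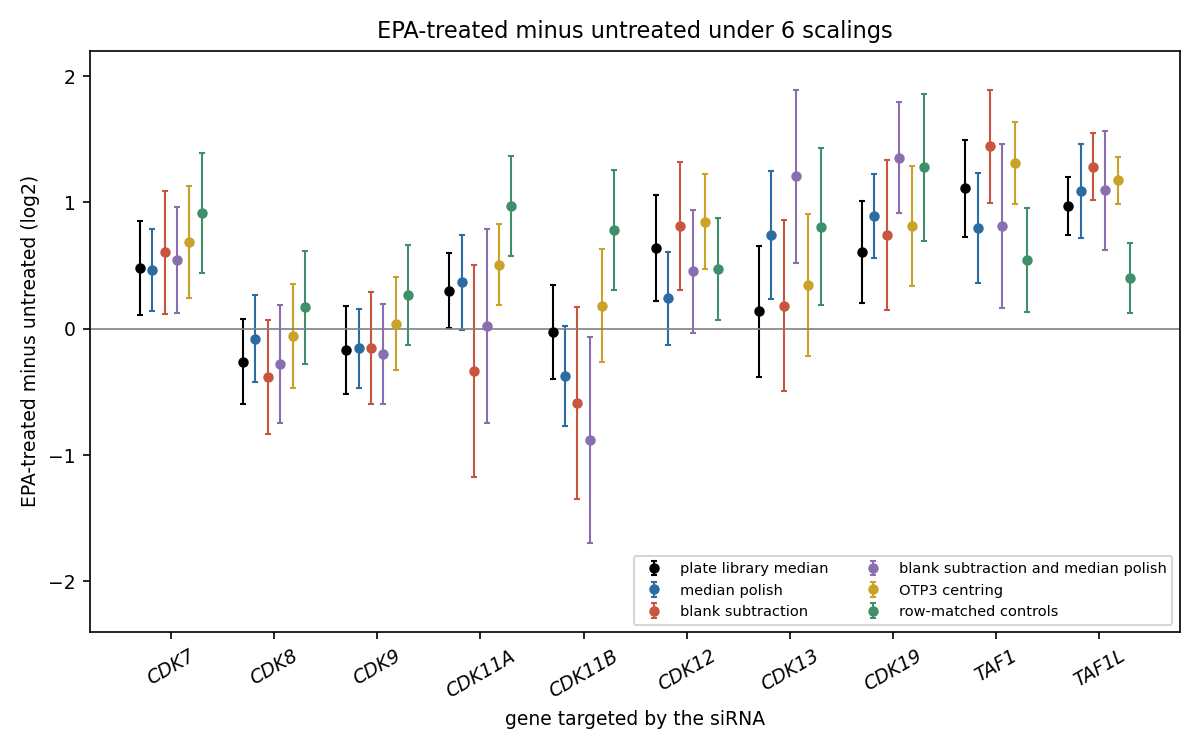
Difference between EPA-treated and untreated samples for each siRNA on a log2 scale, with 95% confidence intervals from limma (n = 3 per group), under 6 ways to scale the wells. TAF1, TAF1L, CDK7, CDK12, CDK13 and CDK19 lie above 0 under each of the 6, and CDK8 and CDK9 lie between -0.38 and 0.26. The intervals of CDK12 and CDK13 include 0 under some scalings, as for CDK12 with median polish (-0.13 to 0.61). For CDK13 this holds with the plate library median (-0.38 to 0.66).

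The closely related genes were compared within each sample, as 4 pairs on log2 values relative to the library median. CDK8 was above CDK19 by 0.81 ± 0.174 untreated and below it by a mean of -0.06 ± 0.164 with EPA (SD, n = 3), a change of -0.87 with no overlap (exact permutation p = 0.1, adjusted over the 4 pairs 0.4). After median polish CDK8 minus CDK19 was 0.21 ± 0.339 untreated, with replicate 2 at -0.05, and -0.76 ± 0.126 with EPA. The levels of this pair thus depended on the position correction, while the change was similar, at -0.97 (exact permutation p = 0.1, adjusted 0.2). CDK11A was below CDK11B in 6 of 6 samples, by a mean of -0.40 (exact sign-flip p = 0.031, the smallest for 6 samples, adjusted 0.125), but above it by 0.47 after median polish (adjusted p = 0.188, same exact test). CDK12 minus CDK13 was 0.15 (adjusted exact sign-flip p = 0.625) and -0.64 after median polish (adjusted 0.125). TAF1 minus TAF1L was -0.24 (exact sign-flip p = 0.125, adjusted 0.25) and 0.00 after median polish (adjusted 0.969). None of the 4 pairs passed the correction in any of the 5 scalings run. The permutation p cannot fall below 0.1, and a single pair at the smallest sign-flip p is adjusted to 0.125. These tests could therefore hardly pass, and no conclusion is drawn from their not passing. The wells of a pair also lay in different positions.

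Other genes of transcription and of the CDK family give the setting. Of 14 partners of the transcription CDKs (cyclins, Mediator and TFIIH subunits among them) 0 were matched among the wells analysed here. The counts that follow are on the log2 scale relative to the library median. They stand beside 15.2% of library wells lower and 29% higher, and 14.1% and 16.3% after median polish. Of 13 other CDKs, all measured, 2 were lower and 4 higher with EPA relative to untreated, with a median of -0.06, and after median polish the counts were also 2 and 4, with a median of 0.09. CDK2, a cell-cycle kinase, had the lowest statistic (-0.60, limma adjusted p = 0.0146, and -0.11 after median polish, adjusted p = 0.601) and CDK16 the highest (0.62, adjusted p = 0.0113, and 0.46). Of 12 splicing-related kinases 1 was lower and 6 higher, and 2 and 4 after median polish, with SRPK3 at -1.19 (adjusted p = 0.00162) and HIPK4, in plate row 16, at 0.83 (adjusted p = 0.00245). Of 3 bromodomain and TRIM chromatin proteins 1, TRIM27, was higher (0.97, adjusted p = 0.00168, but 0.41 and adjusted p = 0.0538 after median polish), and BRDT was at 0.39 (adjusted p = 0.0845). Of 4 CDK-like kinases 2 were higher by limma, and the list ran from CDKL3 at -0.42 (adjusted p = 0.0623) to CDKL2 at 0.56 (adjusted p = 0.0102). After median polish 0 of the 4 CDK-like kinases and 0 of the 3 chromatin proteins were called by limma, with 1 higher in each list at an unadjusted p under 0.05.

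The library siRNAs most like TAF1 over the 6 samples, by Euclidean distance of the log2 values after median polish, were those against OXSR1 (0.356), DGUOK (0.52) and CDK3 (0.571). Those most like TAF1L were NRBP1 (0.576), WNK3 (0.633) and AURKB (0.635). All 6 lay in other rows than row 1 of plate 3, and their values with EPA ran from 0.70 for WNK3 to 1.23 for AURKB. They were picked as nearest on these same values, so their likeness to TAF1 and TAF1L follows from the choice. Row and column medians had been taken out first, so their rows are no test of position.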

How the data were processed

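The deposited table gives raw fluorescence intensity, a whole number for every well of every sample, per the file headers; the dye was read on a plate reader per the labels' protocols. Blank subtraction or normalization by the authors is not given in the sources used here. It holds 3 plates of 16 rows and 24 columns, each with 16 blank, 16 OTP3, 8 TOX and 24 cells-alone wells. Columns were matched to groups, not to numbered samples. Of 939 library wells, 931 were named by locus ID, 2 by transcript only, 2 by transcript against locus ID, and 4 kept the file's symbol (RefSeq table, GRCh38.p14); 21 wells without siRNA were left out.

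Values were divided by the library median of plate and sample, with no pseudocount or filter, and fitted with limma 3.58.1 in R 4.3.3 (group means, trend and robust options). Single values used exact permutation tests, two-sided (scipy 1.17.1). Precision is limited by 3 samples per group. The genes, lists and tests were chosen with earlier results of these data known. All 10 genes were named; from each other list, the genes with the lowest and highest statistic; for the 2 genes with the largest difference, the 3 nearest siRNAs. On simulated data for EPA-treated minus untreated over 939 wells, 52% of -0.5, 82% of -1, 52% of 0.5 and 90% of 1 (log2) were recovered, and 6 of 144 calls were false. The simulated noise was independent between wells, and EPA had no effect that varied with plate position. These figures therefore do not cover calls that position may raise. Alternatives were OTP3 centring, blank subtraction (floor 3 SDs of blanks), median polish, both, row-matched controls, quantile normalization, a filter at 2 times the TOX median, eBayes without options, centring on the median difference, and leaving out each sample; median polish with a sample left out was added after the data were seen.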

Additional observations from a re-analysis of the deposited data

Results flagged for a closer look

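For 5 of the 10 siRNAs the distance from the library median differed between untreated and EPA-treated samples by a test of the difference itself (limma, adjusted p under 0.05). The EPA-treated minus untreated values were 0.48 for CDK7, 0.64 for CDK12, 0.60 for CDK19, 1.11 for TAF1 and 0.97 for TAF1L, on the log2 scale. Each had 3 EPA-treated samples above the 3 untreated ones on that scale, as 36% of library wells did. Groups of 3 samples are too small for a test of single outlying samples, so EPA replicate 6 of CDK13 (12487 units, beside 27672 and 24043) is given as a value.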

How the results depend on the processing

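CDK11A and CDK11B stayed lower than the reference in both groups in all 8 settings that kept them, and TAF1L stayed higher with EPA than untreated in all 10. With row-matched controls, however, the TAF1L difference of 0.40 was below the library median of 0.50. With OTP3 centring 9 of the 10 siRNAs were lower and 0 higher untreated, 6 lower and 2 higher with EPA, with library counts of 868 and 8, and of 687 and 105; for the difference 91 library wells were lower and 437 higher. With row-matched controls 10 siRNAs were lower and 0 higher untreated, 7 lower and 0 higher with EPA and 8 higher in the difference, with library counts of 891 and 2, 669 and 57, and 69 and 475. Median polish left 1 higher untreated, and 153 library wells higher in the difference. Both corrections left 1 higher untreated and 3 higher in the difference, with library counts of 215 and 207 untreated and 125 higher in the difference. The low-signal filter, by removing CDK11A and CDK11B, left 2 lower untreated and 1 lower with EPA. Quantile normalization gave 172 library wells higher in the difference; centring on the median difference gave 131, and 2 of the 10. Leaving out 1 sample gave 3 to 4 higher in the difference, with 209 to 277 library wells higher (22.3% to 29.5%), and 3 to 4 after median polish, with 106 to 131 (11.3% to 14%).

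Values that changed sign against a call were, untreated with OTP3 centring, CDK9 (-0.62), CDK12 (-0.84), CDK13 (-0.75) and TAF1 (-0.29); with row-matched controls, CDK9 (-0.62), CDK12 (-0.97), CDK13 (-0.72), TAF1 (-0.68) and TAF1L (-0.37); and TAF1L with median polish (-0.081) and both corrections (-0.11). With EPA they were CDK7 (-0.70), CDK9 (-0.58) and CDK13 (-0.40) with OTP3 centring, CDK7 (-0.47), CDK9 (-0.35), CDK12 (-0.50) and TAF1 (-0.14) with row-matched controls, and CDK19 with median polish (0.40) and both corrections (0.70). In the difference CDK11B turned to 0.78 with row-matched controls. OTP3 and row-matched controls set 0 at the control level, above the median siRNA, by construction; otherwise the cause was not tested. No paired analysis was possible because the columns are numbered 1 to 6 through both groups and share no replicate number. Signals near the blank level, those of CDK11A and CDK11B with EPA, limit how much further loss can be read.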
